A study of Caenorhabditis elegans with 2 samples.

Results

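The genes described here encode molecular chaperones and the proteasome of Caenorhabditis elegans. They were the protein-coding genes of the RefSeq annotation of build ce11 whose symbol begins with hsp-, pas-, pbs-, rpt- or rpn-. There were 57 such genes among 19971 protein-coding genes, 24 of them heat shock genes and 33 proteasome genes. A further symbol, hsp-2, belongs to an annotated pseudogene and was left out. The rule itself used names alone and no measured value, but it was set with earlier results of these data known.

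Chromatin immunoprecipitation with sequencing (ChIP-seq) had been used to map B0261.1, listed as vep-1 in the annotation, which gives its product as a Myb-like domain protein, in whole young adult worms of strain OP662. The strain carries unc-119(tm4063) III and the transgene array wgIs662, which encodes B0261.1 with GFP and FLAG at its C terminus, and the precipitation used an anti-GFP antibody per the description, while the antibody field of the labels names B0261.1. Mixed-sex animals were taken 64 hours after larvae of the first stage had been starved to synchronise them. Biological replicates 1 and 3 made up a single group of 2, with no untagged, untreated or heat-shocked group among the samples used here, so occupancy under stress was not measured and no comparison between conditions exists. Whole worms were used, so a region that is occupied in few cells cannot be told apart from one that is weakly occupied in many.

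Heat shock proteins are chaperones that help other proteins fold, keep them from aggregating and hand damaged ones on for degradation. Some, such as the cytosolic HSP70 and HSP90 proteins, are made in every growing cell, while others are made chiefly when heat or misfolded proteins activate a stress response, in worms largely through the heat shock factor HSF-1. HSF-1 binds heat shock elements, which are built from inverted repeats of GAA. The proteasome degrades ubiquitin-tagged proteins. Its barrel-shaped core consists of rings of alpha subunits (pas- genes) and beta subunits (pbs- genes), and its regulatory particle contains a ring of ATPases (rpt- genes) and further subunits (rpn- genes) that bind, deubiquitinate and position the substrate.

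A promoter window ran from 500 bp before the annotated start to 100 bp after it, and was searched for summits, the points of highest signal in a called region. Of the 57 genes, 6 had a summit among the 1550 reproducible peaks, those kept by the authors after ranking by irreproducible discovery rate (IDR). That is 10.5% (95% Wilson interval 4.91 to 21.1%, which covers counting of genes only), beside 1.84% of all protein-coding genes. The 6 genes were hsp-1, hsp-90, hsp-3, hsp-110, rpn-3 and rpn-11. They rested on 5 summits, since hsp-110 and rpn-3 are divergent neighbours that share 1 summit. All 5 summits lay between protein-coding genes and none lay within 100 bp of a tRNA, snoRNA, snRNA, SL RNA or rRNA gene.

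The sequences around the summits on which these results turn are shown first, with 50 bases on each side of the IDR summit, read 5′ to 3′ on the strand of the gene named first, from the RefSeq genome of build ce11. Capitals mark matches, on either strand, to GAANNTTC or TTCNNGAA (inverted GAA repeats, as in heat shock elements), CGGCCA or CGCGCA; the search also covered TATAAA and GTTCGANNC, a B box sequence.
hsp-1 (chrIV:17278536-17278636, plus strand): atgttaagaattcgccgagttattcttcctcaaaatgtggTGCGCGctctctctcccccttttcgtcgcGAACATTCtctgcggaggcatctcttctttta
hsp-90 (chrV:14685716-14685816, plus strand): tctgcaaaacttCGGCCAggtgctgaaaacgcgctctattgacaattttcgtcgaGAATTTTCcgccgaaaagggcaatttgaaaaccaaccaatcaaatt
hsp-3 (chrX:6092116-6092216, minus strand): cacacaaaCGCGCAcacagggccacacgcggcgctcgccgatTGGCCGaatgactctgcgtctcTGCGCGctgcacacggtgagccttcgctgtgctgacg
hsp-110 and rpn-3 (chrIII:8447118-8447218, minus strand): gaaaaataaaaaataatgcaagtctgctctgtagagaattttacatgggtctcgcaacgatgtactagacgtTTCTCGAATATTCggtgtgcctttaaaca
rpn-11 (chrII:4044480-4044580, minus strand): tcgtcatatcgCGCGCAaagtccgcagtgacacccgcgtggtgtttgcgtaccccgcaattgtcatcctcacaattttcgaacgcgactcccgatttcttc

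GAANNTTC was found in 3 of these 5 windows, those of hsp-1, hsp-90 and hsp-110 with rpn-3. It was found in 17 of the 322 IDR summits that lie in the promoter window of any protein-coding gene (5.28%) and in 69 of all 1550 (4.45%). In the window of hsp-110 and rpn-3 a TTCNNGAA match overlaps it, giving a run of 3 inverted units. CGCGCA was found in 3 of the 5 windows, against 45 of the 322 promoter summits, and CGGCCA in 2, against 41 (12.7%). TATAAA and GTTCGANNC were in none of the 5, beside 5.90% and 3.11% of promoter summits. These are counts of letters in 5 windows, with no test, and a match is not a measured binding site of any factor. The G and C content of the windows ran from 36.6% at hsp-110 and rpn-3 to 66.3% at hsp-3, around a median of 48.5% over the 322 promoter summits.

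Among the heat shock genes, the IDR summits were found at large constitutive chaperones. Of 7 genes in this class, 4 had an IDR summit (57.1%, Wilson interval 25.0 to 84.2%). The summits of hsp-90 and hsp-110 lay closer to the start of a neighbouring gene. With each summit given to the nearest start alone, 2 heat shock genes were left. Of the 8 stress-inducible chaperones 0 had one (upper Wilson limit 32.4%), as did 0 of the 9 small and other heat shock genes (upper limit 29.9%). With 1.84% of all protein-coding genes called, a count of 0 in classes of this size is near the background, and 4 of the 8 inducible promoter windows hold no sequence of 31 bases that occurs once in the genome. The classes were drawn up from the known roles of the genes with earlier results of these data at hand, so these counts are a description with no test. Expression was not measured, so constitutive and inducible are class names here and were not checked in these worms.

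hsp-1, on chromosome IV from 17278959 to 17281330, encodes the constitutive cytosolic HSP70. Its IDR summit lay at 17278586, upstream of the start at offset -373 bp, with a signal of 381 and rank 892 of 1550. The signal is the authors' own value for a region; its normalisation is not given in the sources used here, and it can be read only within 1 list. In the pooled list of 30000 regions, called on both replicates together, the strongest region of hsp-1 ranked 876 with a signal of 388. It ranked 1144 of 23931 in replicate 1 (signal 86.4, offset -375) and 966 of 30000 in replicate 3 (signal 300, offset -367). The replicates' summits were 8 bp apart.

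hsp-90, on V from 14686160 to 14688539, encodes the cytosolic HSP90. Its IDR summit at 14685766 (offset -394) had a signal of 366 and rank 908. The strongest region in its window ranked 900 in the pooled list, 1103 in replicate 1 (signal 91.7, offset -361) and 973 in replicate 3 (signal 294, offset -400). A second pooled summit in the window, at -193, had a lower signal of 144. The main summit also lay in the window of the divergent gene C47E8.4, at -281 from its start, and so was closer to that gene than to hsp-90. A separate IDR peak lay in the untranslated region at the far end of hsp-90, 2371 bp downstream of the start, with a signal of 190.

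hsp-3, on X from 6089033 to 6091785, encodes a BiP-type HSP70 of the endoplasmic reticulum. Its IDR summit at 6092166 (offset -381) had a signal of 303 and rank 1019. The strongest region ranked 996 in the pooled list, 1533 in replicate 1 (signal 53.0, offset -452) and 1008 in replicate 3 (signal 284, offset -383). The replicates' summits were 69 bp apart. The gene's nearest upstream neighbour, C15H9.5, lies 1514 bp away, and no other protein-coding gene had this summit in its window.

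hsp-110, on III from 8443910 to 8446909, encodes an HSP110, which exchanges nucleotide on HSP70. rpn-3, from 8447353 to 8449346 on the other strand, encodes a lid subunit of the regulatory particle. The gap between the genes is 443 bp. The shared IDR summit at 8447168 lay at -259 from hsp-110 and at -185 from rpn-3, with a signal of 271 and rank 1107. It was closer to rpn-3, and the list gives no way to assign it to one gene. The region ranked 1124 in the pooled list (signal 260), 1702 in replicate 1 (signal 46.4) and 1295 in replicate 3 (signal 201), with replicate summits 12 bp apart.

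rpn-11, on II from 4043062 to 4044330, encodes the deubiquitinating enzyme of the proteasome lid. Its IDR summit at 4044530 (offset -200) had a signal of 189 and rank 1479, near the lowest signal of any IDR peak, 179. The strongest region ranked 1534 in the pooled list (signal 178), 1785 in replicate 1 (signal 44.0, offset -219) and 1647 in replicate 3 (signal 150, offset -140). The replicates' summits were 79 bp apart. Of the 6 genes it alone was outside the 1550 highest-signal regions in both replicates' own lists.

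**Figure D1:**
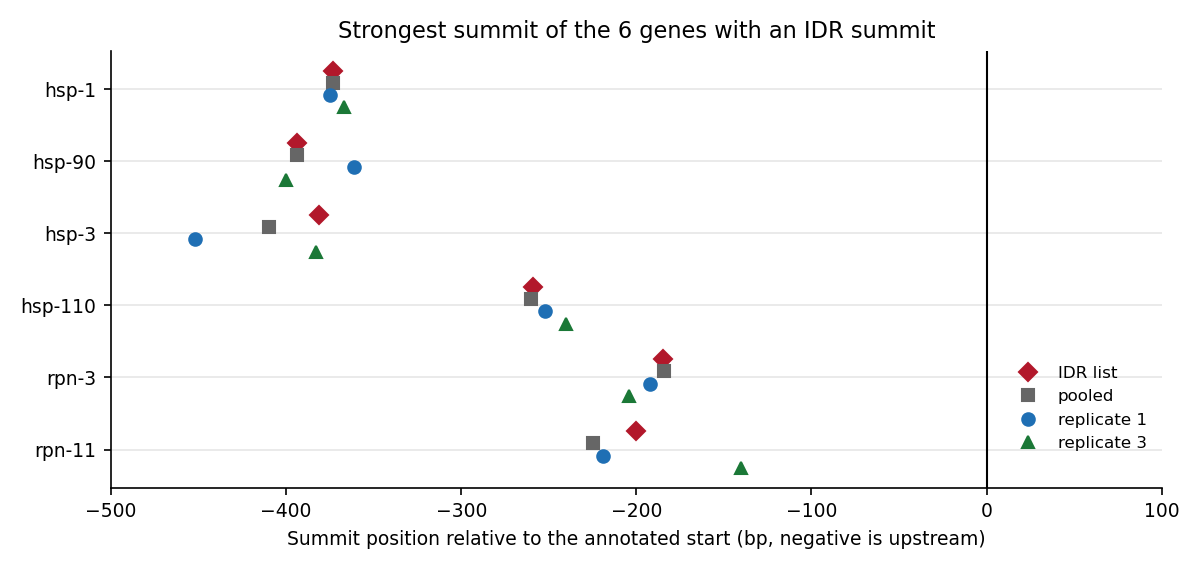
Position of the strongest summit (x axis, bp from the annotated start, negative upstream) for the 6 genes with an IDR summit (y axis), with 1 symbol each for the IDR list, the pooled list and the 2 replicates. All 24 symbols lie upstream, from -452 at hsp-3 in replicate 1 to -140 at rpn-11 in replicate 3.

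The 6 genes sat in the weaker part of the IDR list. Their signals ran from 189 to 381 with a median of 287, against a median of 257 for the 367 protein-coding genes with an IDR summit and of 504 for all IDR peaks. None of them was among the 775 IDR peaks of highest signal, which reached 0.366% of protein-coding genes. Their offsets had a median of -316 bp, against -238 bp for the 367 genes, of which 94.8% had the summit upstream. With a window that reached 200 bp upstream, rpn-3 and rpn-11 (at the edge, at -200) were the 2 members left, beside 0.771% of all protein-coding genes; the 4 chaperones were all outside. The 1550 pooled regions of highest signal held the same 6 genes, beside 1.85% of all protein-coding genes. The IDR peaks were derived from the ranked lists, so this is no separate check.

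hsp-60, the mitochondrial chaperonin and the remaining large chaperone with an IDR peak close by, had its summit just outside the window. The IDR summit at III 1619119 lay at -623 from hsp-60, with a signal of 542 and rank 752, higher than any of the 6. It ranked 733 in the pooled list, 1155 in replicate 1 (summit at -658) and 773 in replicate 3 (at -623). The same summit lay at -190 from Y22D7AL.10, the divergent neighbour, which the annotation calls a mitochondrial 10 kDa heat shock protein and which the naming rule does not take in. The chaperonin gene and this neighbour therefore flank 1 IDR peak, as hsp-110 and rpn-3 do. A window of 1000 bp upstream took in 7 members with hsp-60, beside 2.70% of all protein-coding genes, and overlap of the whole region with the window also gave 7, beside 2.50%. The 101 bases around it hold none of the 6 motifs.
hsp-60 and Y22D7AL.10 (chrIII:1619069-1619169, plus strand): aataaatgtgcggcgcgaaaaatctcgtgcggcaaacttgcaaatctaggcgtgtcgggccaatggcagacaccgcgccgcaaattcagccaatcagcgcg

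The other large chaperones had weaker regions. hsp-6, the mitochondrial HSP70, had a pooled region at -406 with a signal of 91.4 and rank 3417, found at rank 4039 in replicate 1 and 3478 in replicate 3, with summits 14 bp apart. hsp-75, a mitochondrial member of the HSP90 family, had a pooled signal of 26.2 at rank 22600 and no region in replicate 1. Of the 7 large chaperones, hsp-1, hsp-90, hsp-3, hsp-110 and hsp-6 were within the 5000 regions of highest signal in the pooled list and in each replicate, a depth that took in 8.29%, 5.91% and 8.05% of all protein-coding genes in the pooled list, replicate 1 and replicate 3.

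The labels of these worms name no heat treatment. Of the 8 stress-inducible chaperones, 3 had a pooled region (37.5%, Wilson interval 13.7 to 69.4%, against 25.0% of all protein-coding genes). hsp-70, the heat-inducible cytosolic HSP70, had the strongest region of the class, at -457, with a pooled signal of 76.6 and rank 4431. It ranked 9022 in replicate 1 and 4390 in replicate 3, and the summit lay in an intron of uggt-2. The divergent small heat shock genes hsp-16.2 and hsp-16.41, on V, shared a pooled region with a signal of 32.4 and rank 17334. Replicate 3 had a region there at rank 11239, and replicate 1 had none. hsp-4, the BiP gene induced by stress of the endoplasmic reticulum, had no region in the promoter window in any list, while 3 pooled summits lay inside the gene.

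No region was listed in the windows of hsp-16.1, hsp-16.11, hsp-16.48 and hsp-16.49 either, but these genes form an inverted duplication. Of the 571 sequences of 31 bases in each of their promoter windows, 0 occur once in the genome. Reads of up to 31 bases from these windows cannot be placed uniquely, and longer sequences were not counted. The lack of a region there therefore does not show lack of occupancy. In the windows of the other members at least 86.7% of such sequences were unique, the lowest being hsp-16.20.

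The whole 220 bases between hsp-16.2 and hsp-16.41 are shown as an example of an inducible promoter with inverted GAA repeats. The pooled region there had a signal of 32.4, and the relation of the repeats to signal was not tested. Capitals mark GAANNTTC, TTCNNGAA and TATAAA.
hsp-16.2 and hsp-16.41 (chrV:1804958-1805177, plus strand): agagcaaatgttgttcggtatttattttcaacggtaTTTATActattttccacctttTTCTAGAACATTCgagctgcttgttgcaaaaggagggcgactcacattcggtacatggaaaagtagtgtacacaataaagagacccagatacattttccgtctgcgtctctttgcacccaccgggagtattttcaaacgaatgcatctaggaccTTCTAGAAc

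From 250 bases before to 50 bases after the start, GAANNTTC was present in 7 of 8 stress-inducible promoters, in 2 of 7 large constitutive ones (hsp-1 and hsp-110) and in 5 of 33 proteasome promoters, against 18.5% of all 19971 promoters. The 7 include the duplicated hsp-16 genes and pairs that share a promoter, so they are not separate sequences. TTCNNGAA was present in 7 of 8, 3 of 7 and 7 of 33, against 3787 of all 19971 promoters. CGGCCA and CGCGCA were in none of the 24 heat shock promoters in this span and in 5 of 33 proteasome promoters each, against 4.94% and 6.04% of all. The IDR summits of hsp-1, hsp-90 and hsp-3, at -373, -394 and -381, lie upstream of this span. The GAANNTTC, CGGCCA and CGCGCA matches marked around those summits are therefore not counted here. The counts depend on where the span ends.

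Among the 9 small and other heat shock genes, hsp-16.20 had the strongest region. Its pooled signal was 122 (rank 2341, offset -47), with rank 4677 in replicate 1 and 2039 in replicate 3, and an snRNA gene lay within 100 bp of the pooled summit. It was the only member whose strongest pooled summit lay that close to a noncoding gene of these classes, and the part of that gene in the signal was not tested. hsp-43 had a pooled signal of 40.6 with its summit in its own coding exon, and hsp-12.2 one of 25.8. In replicates 1 and 3 the strongest summit of hsp-43 lay upstream instead, at -270 and -295. hsp-25 had a region in replicate 3 alone (signal 55.2, rank 6285), as did hsp-16.21 (signal 30.4, rank 16230). hsp-12.1, hsp-12.3, hsp-12.6 and hsp-17 had none in the window. hsp-12.3 had an IDR peak at the far end of the gene, 522 bp downstream of the start, with a signal of 349 and an snRNA gene within 100 bp.

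**Figure D2:**
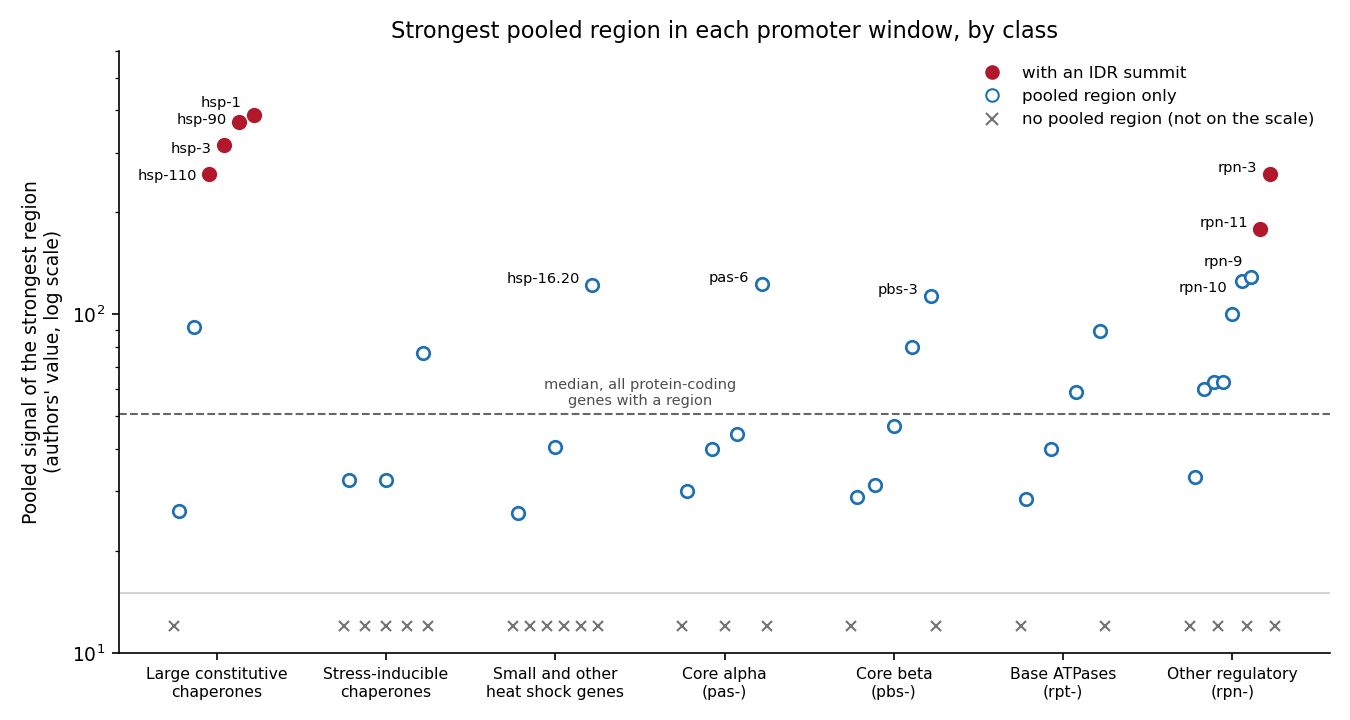
Pooled signal of the strongest region in the promoter window (y axis, the authors' value on a log scale) for each of the 57 genes, by class (x axis); filled points have an IDR summit, open points a pooled region only, and crosses no pooled region. The 6 filled points lie from 178 to 388, and every open point lies at 129 or below; the dashed line is the median of 50.8 over all protein-coding genes with a pooled region.

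In the proteasome, IDR summits were at 2 of 19 regulatory genes (10.5%, Wilson interval 2.94 to 31.4%) and at 0 of 14 core genes (upper Wilson limit 21.5%), beside the 1.84% of all protein-coding genes. Both were rpn- genes. The difference between core and regulatory genes was not tested. Pooled regions, with or without an IDR summit, were at both parts. They were at 9 of 14 core genes (64.3%) and 13 of 19 regulatory genes (68.4%), against 25.0% of all protein-coding genes. The Wilson intervals were 38.8 to 83.7% and 46.0 to 84.6%. A pooled region without an IDR summit was at 9 of 14 core genes (64.3%) and 11 of 19 regulatory genes (57.9%). The share of all protein-coding genes was then 23.2%. In replicate 1 the counts were 4 of 14 core genes (28.6%) and 8 of 19 regulatory genes (42.1%), and in replicate 3 they were 7 of 14 and 14 of 19 (73.7%), so the core share was the lower of the 2 in each list, with overlapping intervals. Among genes with a region, the median rank was 10920 for core and 5983 for regulatory genes in the pooled list. It was lower in number, that is stronger, for core genes in replicate 1 (10146 against 10878) and replicate 3 (4844 against 6955).

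The strongest core regions were at pas-6 and pbs-3. pas-6, an alpha-ring gene on V, had a pooled signal of 123 at -228 (rank 2308), with rank 2166 in replicate 1 and 2718 in replicate 3. pbs-3, a beta-ring gene on II, had 113 at -101 (rank 2558). It ranked 2738 in replicate 3 but 10690 in replicate 1. In the pooled list and both replicates its summit lay in an untranslated region of ulp-2, the same-strand neighbour 22 bp upstream. pbs-7, also of the beta ring, had 80.1 (rank 4115), with ranks of 9603 and 4844 in replicates 1 and 3. These 3 were the core genes among the 5000 pooled regions of highest signal.

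The remaining core regions were weak. pbs-1 had a pooled signal of 46.7, pas-3 of 44.3, pas-1 of 40.1, pbs-6 of 31.3, pas-4 of 30.0 and pbs-2 of 28.9, all below the median of 50.8 over the 4987 protein-coding genes with a pooled region. pas-3 alone of these had a region in both replicates. For pas-4 and pbs-6 neither replicate's list had a region. pas-2, pas-5, pas-7, pbs-4 and pbs-5 had none in the promoter window in any list, and pas-2 and pbs-5 each had 1 pooled summit inside the gene, further than 100 bp from the start.

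In the regulatory particle the next regions after rpn-3 and rpn-11 were at lid, receptor and scaffold genes. rpn-9, a lid gene on II, had a pooled signal of 129 at -319 (rank 2177), and ranks of 1993 in replicate 1 and 2821 in replicate 3. rpn-10, which encodes a ubiquitin receptor, had 125 with its summit in its own coding exon at 52 bp downstream of the start (rank 2287), and no region in replicate 1. rpn-2, which encodes the large scaffold subunit of the base, had 99.8 at -378 (rank 3017), also with none in replicate 1. The lid genes rpn-7, rpn-5 and rpn-6.1 had 63.0, 63.0 and 60.3. rpn-13, for another ubiquitin receptor, had 33.0 and a region in neither replicate's list.

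rpn-8, a lid gene on I, had a region in the window in replicate 3 alone (offset -474, signal 20.9, rank 25017) and no pooled one. An IDR peak lay in its intron 580 bp downstream of the start, with a signal of 411 and a snoRNA gene within 100 bp. rpn-1, rpn-12 and rpn-6.2 had no region in the window in any list. Of the 6 ATPase genes, rpt-3 had the strongest pooled region, with a signal of 89.4 at -6 (rank 3527), but none in replicate 1. rpt-2, rpt-1 and rpt-6 had 58.9, 40.1 and 28.4, each with a region in both replicates. rpt-5 had a region in replicate 3 alone (rank 29963), and rpt-4 had none.

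Across all 57 genes, 34 had a pooled region in the window (59.6%, Wilson interval 46.7 to 71.4%), against 25.0% of all protein-coding genes. Of these, 28 had no IDR summit (49.1%, against 23.2%). Replicate 3 listed a region for 34 (59.6%, against 24.2%) and replicate 1 for 20 (35.1%, against 18.5%), which gives 47.4% ± 17.4 (SD, n = 2). The replicates' lists differ in length, so the spread includes how far down each list goes. The 20 genes with a region in replicate 1 all had one in replicate 3 as well (35.1%, against 11.4% of all protein-coding genes in both). In 17 of the 20 the strongest summits of the replicates were within 100 bp of each other, with a median distance of 55.0 bp and the largest, at rpn-6.1, of 358 bp. This distance was not taken over all protein-coding genes, so it cannot be called particular to the members. The 20 include the 6 genes with an IDR summit, a list kept for reproducibility between these replicates. For 19 genes no list had a region in the window.

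When as many of the highest-signal regions were taken from each replicate as there are IDR peaks, replicate 3 gave 5 members (8.77%, against 1.67% of all protein-coding genes) and replicate 1 gave 3 (5.26%, against 0.901%). Replicate 3 had hsp-1, hsp-90, hsp-3, hsp-110 and rpn-3. Replicate 1 had hsp-1, hsp-90 and hsp-3, with no proteasome gene; the region of hsp-110 and rpn-3 ranked 1702 there. The mean was 7.02% ± 2.48 (SD, n = 2), beside 1.29% ± 0.545 for all protein-coding genes.

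**Figure D3:**
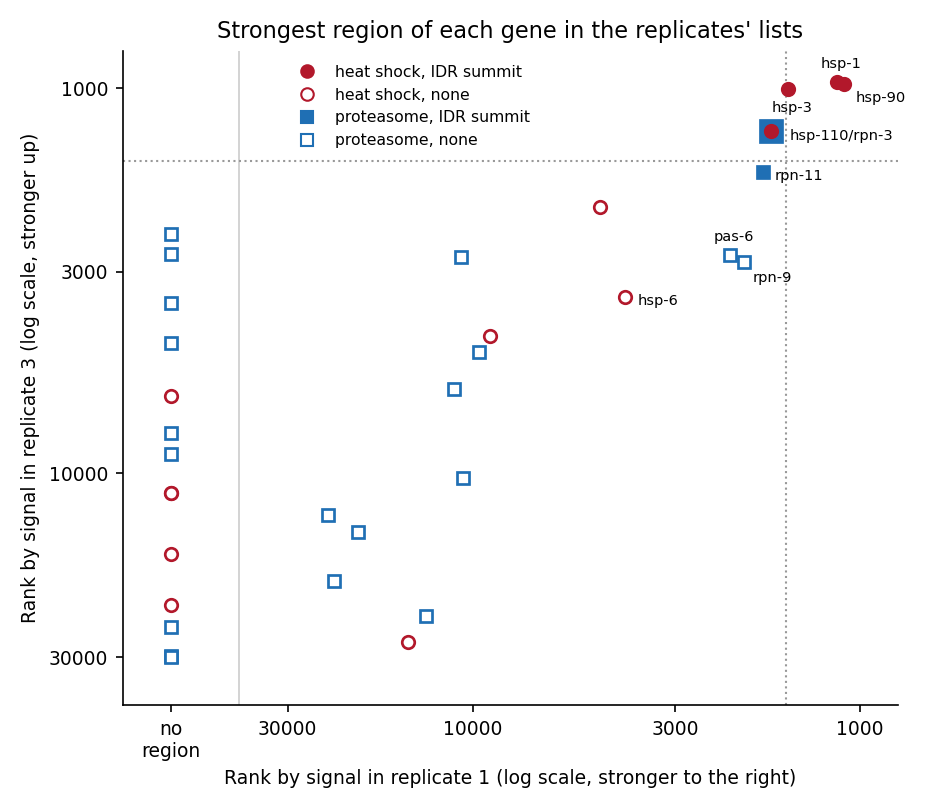
Rank by signal of each gene's strongest region in replicate 1 (x axis) and replicate 3 (y axis), both log scales with stronger regions to the upper right; circles are heat shock genes, squares proteasome genes, filled symbols have an IDR summit, and dotted lines mark rank 1550. hsp-1, hsp-90 and hsp-3 lie past both lines, hsp-110 with rpn-3 past that of replicate 3 alone, and rpn-11 past neither; genes at the left had no region in replicate 1.

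Heat shock genes came first in the pooled list and proteasome genes further down it. There the 1000 regions of highest signal held 3 heat shock genes and 0 proteasome genes. The first 3000 held 5 and 6, the first 10000 held 7 and 14, and the whole list 12 and 22. The last are 12 of 24 heat shock genes and 66.7% of the 33 proteasome genes. In replicate 1 the heat shock share was the higher at 5000 regions, with 6 of 24 heat shock genes and 12.1% of proteasome genes, and the shares over the whole list were 33.3% and 36.4%. In replicate 3 they were 54.2% and 63.6% over the whole list. The share of all protein-coding genes was lower than both at every depth from 2000 regions on, in the pooled list and in each replicate. The lists nest, so these depths are not separate observations, and no test was made.

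**Figure D4:**
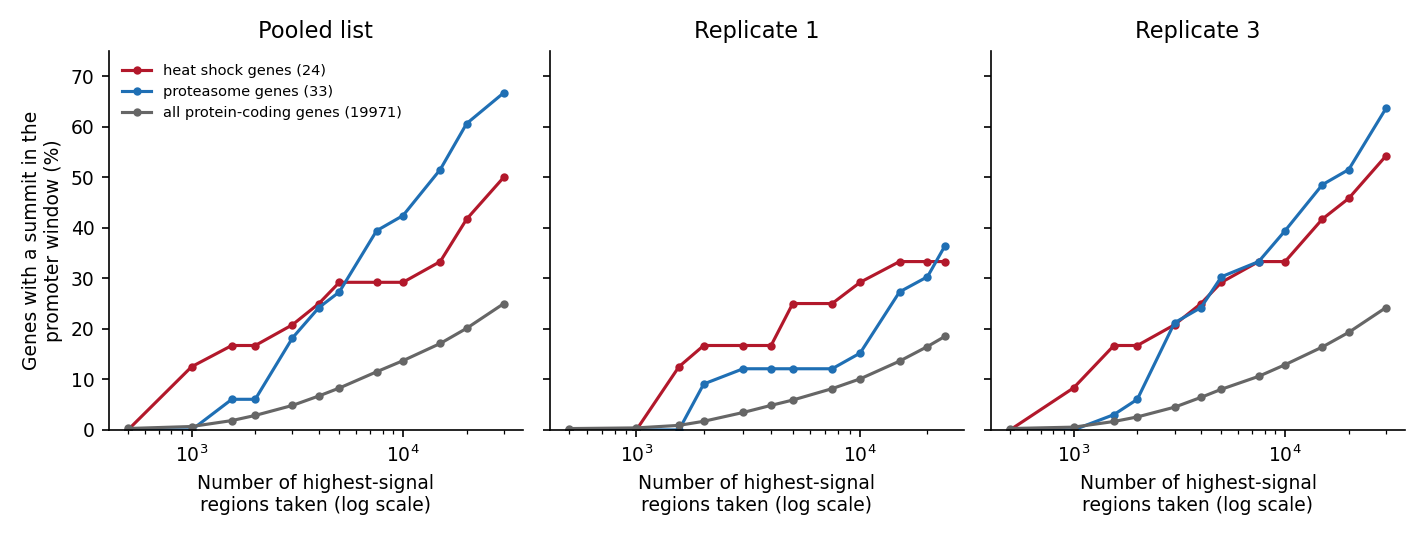
Share of genes with a summit in the promoter window (y axis, percent) against the number of highest-signal regions taken (x axis, log scale), for heat shock genes, proteasome genes and all protein-coding genes, in the pooled list and each replicate. In the pooled list at 1000 regions the heat shock share is 12.5%, the proteasome share 0 and that of all protein-coding genes 0.676%. The proteasome line is higher than the heat shock line from 7500 regions on.

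Several of these summits were shared with a neighbour. Of the 57 genes, 38 have their nearest upstream protein-coding neighbour on the opposite strand (66.7%, against 45.4% of all protein-coding genes), and 29 have one within 500 bp on either strand (50.9%, against 26.9%). The strongest pooled summit lay in the window of another protein-coding gene too for 18 of the 34 members with one (52.9%, against 23.5% of the 4987 genes with a pooled region). For rpn-9 this was T06D8.9, for rpn-2 C23G10.7, for hsp-6 C37H5.5 and for rpn-5 scc-1. The summits of pas-3, rpn-7 and rpn-6.1 lay at -4, -7 and 34 bp from the starts of use-1, F49C12.9 and F57B9.1. From the members' own starts they lay at -152, -417 and -373 bp. Some others lay closer to the member, as at rpn-5 (-116, against -311 from scc-1). When each IDR summit was given to the protein-coding gene with the nearest start alone, 4 members were left: hsp-1, hsp-3, rpn-3 and rpn-11, beside 1.53% of all protein-coding genes. The peaks of hsp-90 and hsp-110 then went to C47E8.4 and rpn-3.

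Other genes of the same systems were counted in the same way. Of 51 cochaperone, DnaJ, chaperonin and HSF-1 regulation genes that are no members, 6 had an IDR summit (11.8%, against 1.84% of all protein-coding genes). They were cct-8, a subunit of the cytosolic chaperonin (signal 438), dnj-13, a DnaJ protein (350), ahsa-1, an activator of the HSP90 ATPase (335), bag-1, an HSP70 cochaperone (244), and the DnaJ genes dnj-9 (219) and dnj-29 (183). For dnj-9 neither the pooled list nor replicate 3 had a summit in the window, and replicate 1 had one at rank 3880. Of 15 genes that act with the proteasome, 1 had a summit: cdc-48.1, for a segregase that unfolds ubiquitinated proteins, with a signal of 485 at -157 and rank 789. The summits of dnj-29, cct-8 and ahsa-1 also lay in the window of another gene each. hsf-1 and skn-1, which encode the transcription factors best known for inducing chaperone and proteasome genes in worms, had no IDR summit.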

How the data were processed

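ChIP-seq peak lists of 2 biological replicates in 1 group were used. Per the submitters' file descriptions, reads had been aligned to ce11, regions called per replicate and on the pooled replicates with a control, and these ranked lists used to derive the IDR peaks. Which aligner, caller and threshold were used is not given in the sources used here. The deposited signal value of each region was used within its own list to rank and describe regions. The lists held 1550 IDR peaks, 30000 pooled regions, 23931 regions of replicate 1 and 30000 of replicate 3. They give no read depth, so the depth is unknown, and the 95% Wilson intervals cover only the counting of genes. The ce10 lists were not used here.

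Genes came from the RefSeq annotation of WBcel235 (ce11; WormBase release 298), and sequences from its genome. A gene's start was its outermost annotated 5′ end, often a trans-splice site in this organism. Coordinates are 1-based, and a gene's strongest region in the window gave its values. Members, classes and lists were chosen with earlier results of these data known. No test was made: 1 group of 2 replicates allows none over samples, and genes are not replicates. All members with an IDR summit were named with full values, and the others with their strongest region. The window assignment was tested on simulated summits. Alternatives were other thresholds, lists, windows, starts and ways to assign a summit. Software was pandas 2.3.3 and numpy 2.4.6 under Python 3.11.15, with intervals from scipy 1.17.1 and plots from matplotlib 3.10.9.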

Additional observations from a re-analysis of the deposited data

How the results depend on the processing

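The count of 6 members with an IDR summit kept within 1.5 times under the pooled list (6), a window reaching 1000 bp upstream (7, with hsp-60), transcript starts (6), overlap of whole regions (7), nearest start only (4) and without summits near noncoding genes (6). It moved to 0 with the 775 IDR peaks of highest signal, where heat shock (0) and regulatory proteasome (0) genes were also lost and no median could be had, and to 2 with 200 bp upstream, where 0 heat shock genes were left. Nearest start only left 2 heat shock genes. Leaving out each replicate gave 3 to 5 members, 3 to 4 heat shock genes, 0 to 1 regulatory genes, median signals of 86.4 to 284 on the replicates' own scales and median offsets of -375 to -367 bp. The median offset of -316 bp moved to -192 bp with 200 bp upstream, -373 bp with 1000 bp upstream or overlap of whole regions, and -286 bp with nearest start only. The core count was 0 in every alternative. The count under the pooled list is no separate check, since the IDR peaks were derived from the ranked lists. Each setting that moved a median keeps other genes, as the counts show. No paired analysis was possible because there is 1 group. The lists give no read depth, so its bearing on weak regions was not tested.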
